A study of Mus musculus with 4 samples.

Results

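The genes described are those of the mitochondrial ribosome whose symbol begins with Mrpl or Mrps followed by a number, taken from the deposited count tables by that rule alone. The rule found 76 genes among the 23420 rows of each table, 47 with the large subunit prefix Mrpl and 29 with the small subunit prefix Mrps. All 76 passed the low-count filter and were among the 12610 genes tested. The mitochondrial ribosome, or mitoribosome, is the machine inside mitochondria that translates the few respiratory chain subunits encoded by mitochondrial DNA. Its RNA comes from mitochondrial DNA, but its proteins are all encoded in the nucleus, made in the cytosol and imported. Many are counterparts of bacterial ribosomal proteins, and others occur only in mitoribosomes.

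There were 2 groups of 2 RNA-seq libraries each. Both came from 1 line of mouse large pre-B cells without Irf4 and Irf8 (genotype Irf4/8-/-), transcription factors needed for the step from large to small pre-B cells, so the control cells carry that deficiency too. The cells grew on OP9 stromal cells with 10 ng/ml interleukin 7 and were transduced with a retrovirus that carried GFP and a hairpin RNA. In the shMyb group the hairpin was directed at the transcript of the transcription factor Myb, and in the shLuc group at luciferase, which the cells do not have. GFP-positive cells were sorted 72 hours later. The duplicates are separate sets of wells of 1 line, so the p-values measure the spread between transductions of that line, not between lines or animals.

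The libraries held 36573743 to 44682954 counts, and single members had 340 to 4906 counts in a library. Myb itself was at 617 and 639 CPM (read counts normalised to library size, with TMM scaling) in the libraries labelled shMyb, against 616 and 600 CPM in shLuc. It was not lower where its hairpin was used (log2 fold change 0.05, SE 0.037, 95% interval -0.03 to 0.12, edgeR adjusted p = 0.283), and it was called higher, by 0.11, 0.14 and 0.09, with library totals alone and with the expression-level trend or the GC and length trend removed. Each direction given here thus compares libraries by their label, and Myb transcript was not lower in the libraries labelled shMyb. The pre-B cell markers Cd79a, Cd79b and Ebf1 were at 271 CPM or more in every library. With Igll1, Vpreb1, Il7r, Pax5, Dntt and Rag1, these 9 large pre-B cell markers summed to 4530 and 4420 CPM in the libraries labelled shMyb and 5170 and 5300 CPM in shLuc, without overlap. Of the 9, Igll1, Vpreb1, Il7r and Dntt fell, Cd79a, Cd79b, Pax5 and Rag1 rose, and Ebf1 did not pass. Of 8 myeloid markers, 5 of them tested, 3 were called higher, and their summed level was 6.62 and 7.72 CPM in the libraries labelled shMyb and 3.88 and 3.35 CPM in shLuc. The 8 markers of stromal feeder cells summed to 48.8 and 55.8 CPM in the libraries labelled shMyb and 66.5 and 51 CPM in shLuc, with 1 called higher and 1 lower. The 3 T cell markers stayed at or below 0.107 CPM in sum. The 4 erythroid markers summed to 6.29 and 8.68 CPM in the libraries labelled shMyb and 4.33 and 1.58 CPM in shLuc, with Hba-a1 at 0 in all 4 libraries. The part of these cells and markers in the results below was not tested.

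Transcripts of the mitochondrial ribosomal proteins were lower in the libraries labelled shMyb nearly throughout. At an edgeR adjusted p below 0.05, 72 of the 76 genes fell, none rose, and 4 did not pass the test. Among all tested genes, 31.7% were called lower, 30.6% higher and 62.2% in either direction by the same rule. With library totals alone 64 of the 76 were called lower, and the split over all tested genes was 3103 lower and 4667 higher, against 3994 lower and 3855 higher with TMM scaling. The median log2 fold change of the 76 genes was -0.28, with a middle range from -0.37 to -0.21, against a median of 4.8e-03 and a middle range from -0.20 to 0.29 for all tested genes. In 74 of the 76, both libraries labelled shMyb lay below both shLuc libraries, which held for 41.2% of tested genes, and in none did both lie above, which held for 41%. The changes were small, from -0.57 for Mrps28 to 0.03 for Mrpl52, and no member changed by as much as 1 on the log2 scale.

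**Figure D1:**
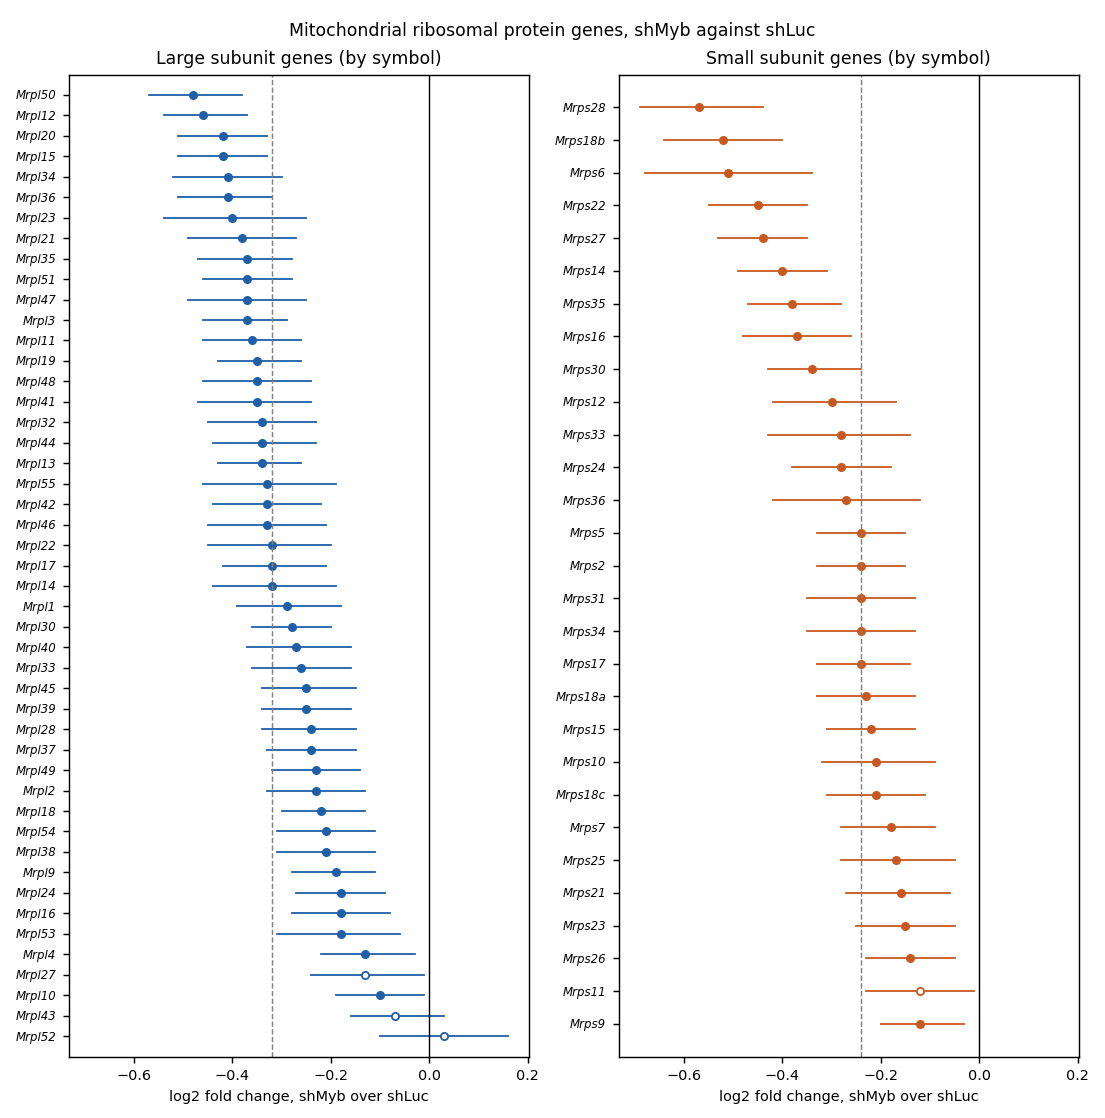
Log2 fold change (shMyb over shLuc, x axis) of each of the 76 mitochondrial ribosomal protein genes, with its 95% interval as a line, for 47 large subunit genes (left) and 29 small subunit genes (right). Open circles mark the 4 genes that did not pass the test, and the dashed lines mark the medians, -0.32 and -0.24.

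Summed over the 76 genes, the level was 3042 and 2999 CPM in the libraries labelled shMyb, against 3616 and 3721 CPM in shLuc. The sum in the libraries labelled shMyb was thus 0.823 of that in shLuc, and the 2 groups did not overlap. CPM is a share of all counts, and in sorted bulk cells fewer cells of a kind and less RNA per cell cannot be told apart. Members lay between 11.6 and 99.2 CPM on average. In that range of abundance 36.8% of all tested genes were called lower and their median log2 fold change was -0.03.

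The promoters of 5 members are shown because these genes stand at both ends of the response. Mrps18b, Mrpl50 and Mrpl12 are among the 5 genes with the lowest fold change, and Mrpl43 and Mrpl52 did not pass the test. Each window runs from 250 bases before to 50 bases after the transcription start, 5′ to 3′ on the gene's strand, as RefSeq gives it on GRCm38.p6. The windows are chr17:35916391-35916690 on the minus strand, chr4:49521034-49521333 on the minus strand, chr11:120484387-120484686 on the plus strand, chr19:45006393-45006692 on the minus strand and chr14:54426659-54426958 on the plus strand. Capitals mark matches, on either strand, to the ETS core CCGGAAG, the NRF1 motif (GCGC, any base, then TGCGC), the E-box CACGTG or the YY1 core ATGGCG.
Mrps18b: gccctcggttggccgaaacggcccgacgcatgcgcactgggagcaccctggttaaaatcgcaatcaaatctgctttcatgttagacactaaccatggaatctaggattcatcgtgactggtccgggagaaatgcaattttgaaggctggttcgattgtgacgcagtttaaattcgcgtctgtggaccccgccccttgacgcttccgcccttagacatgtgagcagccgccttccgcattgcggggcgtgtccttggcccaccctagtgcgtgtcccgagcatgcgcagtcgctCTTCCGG
Mrpl50: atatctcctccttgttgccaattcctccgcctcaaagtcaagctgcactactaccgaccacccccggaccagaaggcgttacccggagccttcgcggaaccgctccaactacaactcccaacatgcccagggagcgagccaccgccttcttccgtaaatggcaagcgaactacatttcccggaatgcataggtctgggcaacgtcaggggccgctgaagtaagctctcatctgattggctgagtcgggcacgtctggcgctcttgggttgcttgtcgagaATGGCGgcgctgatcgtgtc
Mrpl12: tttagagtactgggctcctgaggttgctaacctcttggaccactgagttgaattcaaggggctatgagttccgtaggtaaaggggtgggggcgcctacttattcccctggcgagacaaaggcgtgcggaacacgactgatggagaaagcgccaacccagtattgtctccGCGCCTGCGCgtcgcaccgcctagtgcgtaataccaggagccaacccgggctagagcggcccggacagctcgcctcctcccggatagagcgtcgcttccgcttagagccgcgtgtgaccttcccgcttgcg
Mrpl43: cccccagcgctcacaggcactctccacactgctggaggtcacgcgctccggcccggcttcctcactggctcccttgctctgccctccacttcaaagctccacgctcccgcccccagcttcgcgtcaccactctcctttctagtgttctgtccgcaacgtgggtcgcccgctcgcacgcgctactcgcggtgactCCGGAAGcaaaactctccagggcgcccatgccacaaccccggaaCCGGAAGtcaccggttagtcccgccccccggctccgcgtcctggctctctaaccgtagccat
Mrpl52: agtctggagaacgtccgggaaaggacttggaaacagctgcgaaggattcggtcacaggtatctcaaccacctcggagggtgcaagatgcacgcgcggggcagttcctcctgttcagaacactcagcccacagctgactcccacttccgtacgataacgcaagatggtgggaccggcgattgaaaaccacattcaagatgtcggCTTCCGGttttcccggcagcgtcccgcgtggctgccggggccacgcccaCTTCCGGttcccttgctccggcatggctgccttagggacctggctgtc

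By the RefSeq starts, Mrps18b held an ETS core that begins at base 44 after the start, Mrpl50 a YY1 core at base 31 after the start, and Mrpl12 an NRF1 motif that begins 81 bases before the start. The annotation that gave the gene coordinates starts Mrps18b at 35916389, outside this window. By that start the whole window, with its ETS core, lies before the gene. The 2 genes that did not pass the test held ETS cores, Mrpl43 at 56 and 12 bases before the start and Mrpl52 at 47 bases before and at base 3 after it. Windows were found for 67 of the 76 members. The ETS core stood in 32.8% of them, against 18.7% of the windows of 9326 tested genes and 9.17% of all 27025 genes with a window. The NRF1 motif was in 17.9% of member windows, against 10.8% of those of tested genes and 4.81% of all, and the YY1 core in 26.9%, against 16% and 9.28%. The E-box, which Myc and related factors bind, was in 7.46% of member windows, against 10.3% and 7.24%. The Myb core AACNG, a motif short enough to occur in most windows, was in 74.6% of member windows, against 78.1% and 80.3%. A match is a description of the letters, not a binding site. Members with and without each motif had close values: the median log2 fold change was -0.27 with and -0.28 without an ETS core, -0.26 and -0.28 for NRF1, -0.24 and -0.28 for the E-box, -0.28 and -0.27 for YY1, and -0.28 on both sides for the Myb core.

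In the large subunit, which holds the centre that joins amino acids, 44 of 47 genes fell (median -0.32), against 31.7% of all tested genes. The other 3 did not pass. The largest fall was that of Mrpl50, a protein found only in mitoribosomes (chromosome 4, 49512596 to 49521093, minus strand). It was at 39.7 and 37.2 CPM in the libraries labelled shMyb, against 52.4 and 54.5 CPM in shLuc (log2 fold change -0.48, SE 0.047, edgeR adjusted p = 4.9e-09). Mrpl12, a protein of the flexible stalk that recruits translation factors, followed (chromosome 11, 120484613 to 120489065, plus strand). Mrpl12 had 78.2 and 81.6 CPM in the libraries labelled shMyb, against 107 and 113 CPM in shLuc (-0.46, SE 0.04, edgeR adjusted p = 5.1e-10). For both genes the gap between the groups was larger than the spread within them. Exons of Mrpl12 overlap the non-coding gene Gm16755 on the opposite strand. Of the other stalk proteins, Mrpl11, at the stalk base, fell by 0.36 (95% interval -0.46 to -0.26). Mrpl10, to which Mrpl12 binds, fell by 0.10 (-0.19 to -0.01) and was called in 7 of 17 alternative settings. The difference between Mrpl11 and Mrpl10 was not tested.

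Mrpl15, a counterpart of a bacterial protein (chromosome 1, 4773206 to 4785739, minus strand), had 61.3 and 58.9 CPM in the libraries labelled shMyb, against 78.3 and 82.5 CPM in shLuc. Its log2 fold change was -0.42 (SE 0.042, edgeR adjusted p = 6.0e-09). Among other large subunit genes, Mrpl3, mutated in human mitochondrial disease, fell by 0.37, and Mrpl44, related to ribonuclease III and likewise a human disease gene, fell by 0.34. Mrpl45, which tethers the ribosome to the inner membrane, fell by 0.25, as did Mrpl39, a relative of threonyl-tRNA synthetase. Of the proteins of the central protuberance, Mrpl48 fell by 0.35, Mrpl46 by 0.33, Mrpl40 by 0.27 and Mrpl38 by 0.21. Exons of Mrpl3, Mrpl44, Mrpl46 and Mrpl48 overlap those of another gene. In each of these 8 genes both libraries labelled shMyb lay below both shLuc libraries.

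In the small subunit, which binds the mRNA and reads its codons, 28 of 29 genes fell (median -0.24), against 31.7% of all tested genes. Only 1 gene did not pass. The 3 largest falls of all members were here. Mrps28 (chromosome 3, 8802146 to 8923918, minus strand) had 20.9 and 19.3 CPM in the libraries labelled shMyb, against 29 and 30.4 CPM in shLuc (log2 fold change -0.57, SE 0.059, edgeR adjusted p = 1.1e-08). Mrps6 (chromosome 16, 92058270 to 92112227, plus strand), the least abundant member, had 10.2 and 9.05 CPM in the libraries labelled shMyb, against 13.4 and 14 CPM in shLuc (-0.51, SE 0.082, edgeR adjusted p = 7.7e-06). Exons of Mrps6 overlap those of Slc5a3 on the same strand, so its level is uncertain.

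Mrps22 and Mrps27 fell by like amounts. Mrps22, whose human counterpart is mutated in respiratory chain deficiency (chromosome 9, 98588730 to 98601660, minus strand), had 33.2 CPM in each library labelled shMyb, against 46.4 and 44.3 CPM in shLuc (log2 fold change -0.45, SE 0.048). Mrps27, a pentatricopeptide repeat protein (chromosome 13, 99344786 to 99415562, plus strand), had 40.9 and 39.8 CPM in the libraries labelled shMyb, against 53.8 and 55.6 CPM in shLuc (-0.44, SE 0.045). In neither gene did the groups overlap. Of other small subunit genes, Mrps16, a further human disease gene, fell by 0.37, Mrps12, part of the decoding centre, by 0.30, and Mrps34 by 0.24. Exons of Mrps34 overlap those of Nme3 on the same strand.

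Mrps18a, Mrps18b and Mrps18c are related to a single bacterial protein and occupy different places in the mitoribosome. Mrps18b (chromosome 17, 35910379 to 35916389, minus strand) had 19.8 and 20.3 CPM in the libraries labelled shMyb, against 28.5 and 28.9 CPM in shLuc. Mrps18a (chromosome 17, 46110986 to 46128910, plus strand), which sits in the large subunit despite its name, had 38.4 and 38.2 CPM in the libraries labelled shMyb, against 43.1 and 46.7 CPM in shLuc. Mrps18c (chromosome 5, 100798627 to 100804471, plus strand) had 37.6 and 37.5 CPM in the libraries labelled shMyb, against 42.5 and 44.4 CPM in shLuc. Exons of Mrps18b and Mrps18c overlap the unnamed models Gm16279 (opposite strand) and Gm43511 (same strand). All 3 fell without overlap between the groups, by 0.52 for Mrps18b (95% interval -0.64 to -0.40), 0.23 for Mrps18a (-0.33 to -0.13) and 0.21 for Mrps18c (-0.31 to -0.11). The interval of Mrps18b does not meet the others, although the difference itself was not tested. With the trend of fold change on GC content and length removed, the values were -0.41 for Mrps18b, -0.15 for Mrps18a and -0.02 for Mrps18c, and Mrps18c was then not called (edgeR adjusted p = 0.717).

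**Figure D2:**
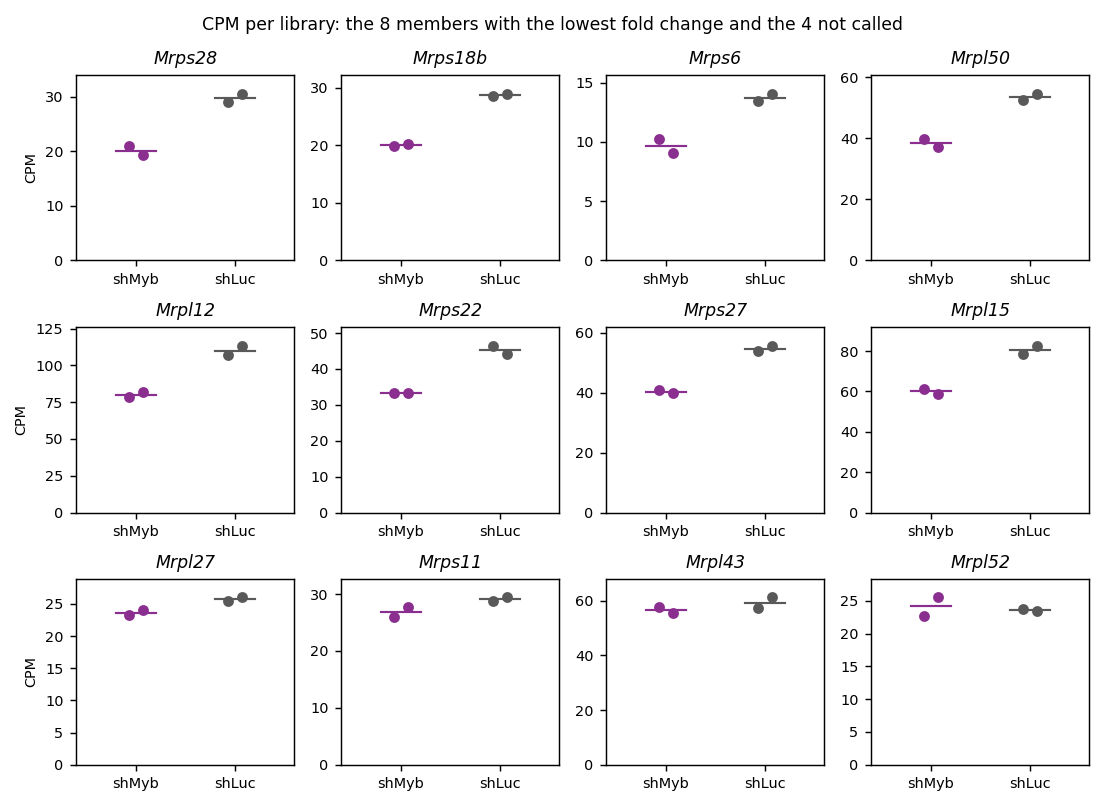
CPM in each library (points) and group mean (line) for the 8 members with the lowest fold change and the 4 members that did not pass the test, with shMyb left of shLuc and each y axis starting at 0. In the first 8 panels the groups are separate, as for Mrps28 with means of 20.1 CPM in shMyb and 29.7 CPM in shLuc, whereas the points of Mrpl43 and Mrpl52 overlap.

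At the other end of the order, 4 members did not pass and 4 more passed with falls of at most 0.14. Mrpl52, with 22.7 and 25.6 CPM in the libraries labelled shMyb and 23.8 and 23.5 CPM in shLuc, had a log2 fold change of 0.03 (95% interval -0.10 to 0.16). Mrpl43 had 57.9 and 55.4 CPM in the libraries labelled shMyb and 57.2 and 61.5 CPM in shLuc (-0.07, 95% interval -0.16 to 0.03). These were the only 2 members whose groups overlapped. Both belong to the large subunit and to the proteins found only in mitoribosomes. Exons of Mrpl43 overlap those of Twnk on the opposite strand.

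Mrpl27 (-0.13, edgeR adjusted p = 0.057) and Mrps11 (-0.12, edgeR adjusted p = 0.0637) narrowly missed the threshold, with no overlap between the groups. Exons of Mrpl27 overlap those of Eme1, and exons of Mrps11 those of Mrpl46, each on the opposite strand. Mrpl27 had 23.2 and 24.1 CPM in the libraries labelled shMyb, against 25.5 and 26.1 CPM in shLuc, and Mrps11 had 25.9 and 27.8 CPM in the libraries labelled shMyb, against 28.8 and 29.5 CPM in shLuc. Without shMyb replicate 2 both were called (Mrpl27 -0.16, edgeR adjusted p = 0.0498, and Mrps11 -0.17, edgeR adjusted p = 0.0229), and without shLuc replicate 1 Mrpl43 was (-0.14, edgeR adjusted p = 0.0274). The smallest falls that passed were those of Mrpl10 (-0.10, edgeR adjusted p = 0.0398), Mrps9 (-0.12, edgeR adjusted p = 0.0138), Mrpl4 (-0.13, edgeR adjusted p = 0.0183) and Mrps26 (-0.14, edgeR adjusted p = 0.00643). Each rested on particular libraries: the calls of Mrpl10 and Mrpl4 ended without shLuc replicate 2 (-0.11 and -0.10) or shMyb replicate 2 (-0.07 and -0.11), that of Mrps26 without shLuc replicate 2 (-0.12), and that of Mrps9 without shMyb replicate 1 (-0.11). With library totals alone none of these 4 was called (-0.04 for Mrpl10, -0.05 for Mrps9, -0.06 for Mrpl4 and -0.08 for Mrps26). The same held with DESeq2 (-0.11, -0.13, -0.14 and -0.15, in that order). With the GC and length trend removed, Mrpl10 (-0.07) and Mrps9 (-0.02) were not called, and Mrpl4 (-0.16) and Mrps26 (-0.15) were. With the expression-level trend removed, Mrpl10 (-0.06), Mrps9 (-0.07) and Mrpl4 (-0.09) were not called, and Mrps26 (-0.11) was.

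By their medians, the large and small subunits differed little in their fall, and the difference was not tested. Their medians of -0.32 and -0.24 differ by -0.08. The gap between the subunits' median log2 CPM was 0.20 and 0.03 in the libraries labelled shMyb and 0.16 and 0.20 in shLuc. Its spread within groups was 0.088 (SD). That spread is of the CPM gap, not of the fold change medians, so it does not measure how far -0.08 could vary. The difference of medians was -0.02 with the GC and length trend removed and between -0.06 and -0.03 when any 1 library was left out. Summed over genes, the large subunit was at 2005 and 1969 CPM in the libraries labelled shMyb, against 2390 and 2465 CPM in shLuc, and the small subunit at 1038 and 1030 CPM in the libraries labelled shMyb, against 1227 and 1257 CPM in shLuc. The ratio of large to small was 1.93 and 1.91 in the libraries labelled shMyb and 1.95 and 1.96 in shLuc. The ratio did not overlap between the groups, and its means of 1.92 (SD 0.0139) and 1.95 (SD 0.00943) differed by more than that spread. The factor between the means was only 0.983. By position in the mitoribosome, with Mrps18a and Mrps30 counted in the large subunit and Mrps36 left out as a protein now placed in the oxoglutarate dehydrogenase complex, the medians stayed at -0.32 for 49 genes and -0.24 for 26 genes.

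**Figure D3:**
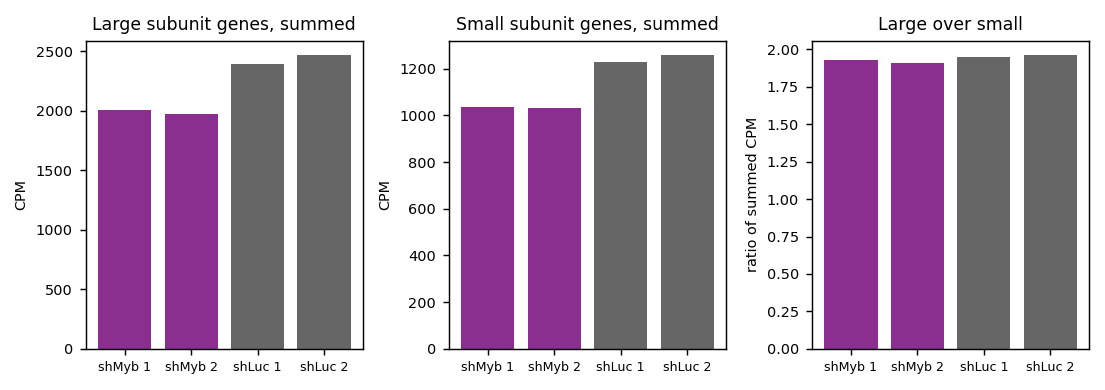
Summed CPM of large subunit genes (left) and small subunit genes (middle), and the ratio of the sums (right), in each of the 4 libraries, with bars from 0. Both sums are lower in the 2 libraries labelled shMyb, and the ratio lies between 1.91 and 1.96 in all 4.

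Proteins with a bacterial counterpart and proteins found only in mitoribosomes also had similar values. The share called lower was 31.7% over all tested genes. Of the 46 members classed as having a counterpart 44 fell (median -0.29), and of the 29 classed as without one 27 fell (median -0.25). Mrps18a and Mrps18b were put in the class without one, although related to a bacterial protein, and Mrps18c in the class with one. By subunit the medians were -0.32 and -0.25 in the large and -0.24 and -0.26 in the small subunit. Under this classing the order of the 2 classes was not the same in both subunits, and the differences were not tested. Across the 76 members, Pearson's r of the log2 fold change was 0.2 with the GC content of the transcript, -0.15 with its log2 length and 0.16 with log2 mean CPM, given as a description because all members were measured in the same 4 libraries. Per kilobase of transcript, the most abundant members were Mrps21, at 91.1 ± 7.76 in the libraries labelled shMyb and 102 ± 0.524 CPM per kb in shLuc, and Mrpl42, at 81.8 ± 6.96 in the libraries labelled shMyb and 103 ± 4.02 CPM per kb in shLuc (SD, n = 2). They were followed in the large subunit by Mrpl18 and Mrpl20 (75.3 and 69 CPM per kb in the libraries labelled shMyb, 87.5 and 92.4 CPM per kb in shLuc) and in the small subunit by Mrps18c and Mrps15 (58.9 and 50.7 CPM per kb in the libraries labelled shMyb, 68.1 and 59.2 CPM per kb in shLuc). These levels depend on which annotated transcript is taken for the length. Mrpl42 fell by 0.33, Mrpl20 by 0.42, Mrpl18 by 0.22, Mrps15 by 0.22 and Mrps21 by 0.16. With the GC and length trend removed the values were -0.14 for Mrpl42, -0.10 for Mrpl18 and -0.12 for Mrps15, all still called, and -2.7e-03 for Mrps21, which was not. The call of Mrps21 also ended without shMyb replicate 1 (-0.08) and with library totals alone (-0.10).

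The members lie on 17 chromosomes, with at most 10 on any of them (chromosome 11), and many stand head to head with another gene. For 24 members the annotation places the start of a protein-coding gene on the opposite strand within 500 bp. In 2 of these cases the neighbour is itself a member: Mrpl46 and Mrps11 overlap at their starts, and Mrpl46 fell by 0.33 while Mrps11 did not pass. The other 22 neighbours are no members, and of the 21 tested 7 fell, 4 rose and 10 did not pass (median 0.01). The share lower was 33.3%, near the 31.7% of all tested genes, and the share higher 19%, against 30.6%. Of the 24 members themselves, 22 fell (median -0.27). Mrps18b fell by 0.52, but its neighbour Ppp1r10, a phosphatase regulator whose annotated start is 45 bp away, rose by 0.10 (edgeR adjusted p = 0.0298). Mrpl2 fell by 0.23 and its neighbour Klc4, a kinesin light chain, rose by 0.42, and Mrps34 fell by 0.24 and its neighbour Eme2 rose by 0.45. The neighbour with the largest fall was Apba3 (-0.54), beside Mrpl54, which fell by 0.21. Mitd1 (-0.36) also fell more than its member Mrpl30 (-0.28). Other neighbours that fell included Psma2, a proteasome subunit beside Mrpl32 (-0.36), and Ndufs6, a complex I subunit beside Mrpl36 (-0.28). Exons of Mrpl36 and Ndufs6 overlap on opposite strands, and the strand setting of the counting is not stated. In all, exons of 32 members overlap another annotated gene on either strand. Of these 32, 29 fell (median -0.30), and of the 44 without overlap 43 fell (median -0.28).

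Genes that act with the mitoribosome moved less uniformly. Among all tested genes, 31.7% were called lower and 30.6% higher. Of 7 mitoribosomal proteins that carry other symbols, 5 fell (71.4%) and 2 did not pass (median -0.28). Gadd45gip1, a large subunit protein, fell by 0.39, and the small subunit proteins Chchd1 and Aurkaip1 fell by 0.37 and 0.31. Dap3, a GTP-binding small subunit protein, was at 80.6 ± 1.22 CPM in the libraries labelled shMyb and 80.7 ± 0.802 CPM in shLuc (SD, n = 2, 95% interval of the log2 fold change -0.08 to 0.08), and Ict1, a release factor relative built into the large subunit, was at -0.09 (95% interval -0.19 to 0.01). Of 26 assembly factors 15 fell (57.7%), 3 rose (11.5%) and 8 did not pass (median -0.19). Mrm3, an rRNA methyltransferase, fell by 0.42, Malsu1 by 0.38 and the GTPase Noa1 by 0.37, while Mettl17, Nsun4 and Mterf4 rose by 0.27, 0.18 and 0.18.

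Of 15 mitochondrial translation factors 8 fell (53.3%, against 31.7% of all tested genes) and none rose (median -0.18). Mtrf1, a release factor at a low level, fell by 0.70, with means of 3.81 CPM in the libraries labelled shMyb and 6.18 CPM in shLuc. Slirp, which stabilises mitochondrial mRNA, fell by 0.40 and the elongation factor Gfm1 by 0.34. The initiation factors Mtif2 and Mtif3 were at 0.06 and 0.01 and did not pass. Of 17 mitochondrial aminoacyl-tRNA synthetases 8 fell (47.1%) and none rose (median -0.11), with Yars2 at -0.39, Rars2 at -0.22 and Fars2 at -0.22. Lars2 was at 385 and 516 CPM in the libraries labelled shMyb and 285 and 327 CPM in shLuc, without overlap, but its spread was wide and it did not pass (0.56, 95% interval -0.32 to 1.43). Of 6 genes of mitochondrial transcription only Tefm, an elongation factor, fell (-0.34), a share of 16.7%. The polymerase gene Polrmt (0.10), Tfam (-0.07) and the other 3 did not pass.

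**Figure D4:**
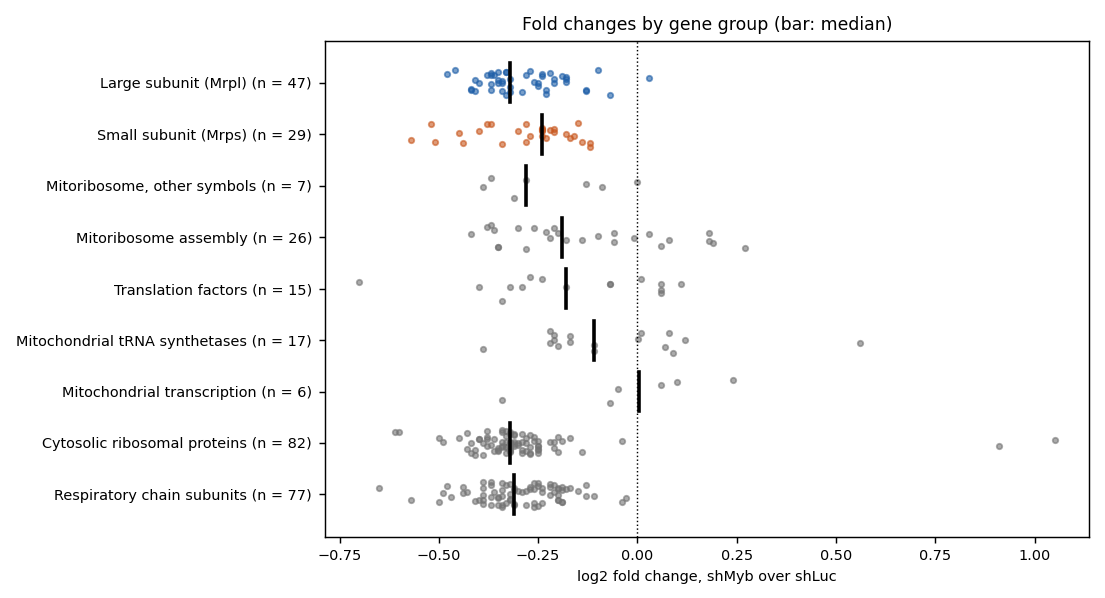
Log2 fold change (shMyb over shLuc, x axis) of every tested gene in 9 groups, with vertical bars at the medians. The mitoribosomal subunits, at -0.32 and -0.24, lie beside cytosolic ribosomal proteins at -0.32 and respiratory chain subunits at -0.31, and mitochondrial aminoacyl-tRNA synthetases and transcription genes lie nearer to 0.

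The genes of the cytosolic ribosome and of the respiratory chain, the machines most like and most dependent on the mitoribosome, gave values close to those of the members. Member transcripts were short, with a median length of 1224 bases against 2898 for tested genes. The median trend on GC content and length at the members was -0.07. Values of these 2 groups are given without removal of that trend. Among all tested genes, 31.7% were called lower. Of 82 tested cytosolic ribosomal protein genes 78 fell (median -0.32), with Rps15a at -0.61 and Rps27l at -0.60, and 1 rose, Rpl3l, a muscle form of Rpl3, which was at 6.68 CPM in the libraries labelled shMyb and 3.54 CPM in shLuc (0.91). Of 77 tested nuclear-encoded respiratory chain subunit genes 74 fell and none rose (median -0.31). The largest falls were in Cox7a1 (-0.65), Ndufa4 (-0.57) and Ndufab1 (-0.50). Cox7a1 was at a low level, with means of 3.21 CPM in the libraries labelled shMyb and 5.05 CPM in shLuc. The ratio of the summed CPM in the libraries labelled shMyb to that in shLuc was 0.823 for the mitoribosomal members, 0.804 for cytosolic ribosomal proteins and 0.819 for respiratory chain subunits. These 3 groups share the same libraries, and the differences between them were not tested.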

How the data were processed

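Each deposited file holds the raw counts of 1 library by gene symbol. Per the submitters' processing notes, FastQC, STAR, HTSeq, DESeq2 and the mm10 build were used. Versions, annotation and the strand setting of the counting, for libraries from a kit that keeps strand, were not given in the sources used here. Libraries were grouped by title, 2 per group.

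The tests used edgeR 4.0.16 (R 4.3.3): filterByExpr with a minimum count of 10 (12610 of 16832 genes with a count), TMM scaling, glmQLFit with robust=TRUE, glmQLFTest with group as the only term, and Benjamini-Hochberg adjustment over all tested genes. An SE is the size of the log2 fold change divided by the square root of F. Set tests were not run. The procedure was also run on simulated counts with few changed genes, a setting unlike these data, and no result here rests on it. Alternatives covered scaling, filter, tool (DESeq2 1.42.0, limma-voom with limma 3.58.1), pairing, trends, threshold and left-out libraries. The trend fits used loess with a span of 0.4. Of tested genes 99.1% had a GC content and length.

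Symbols were matched to GENCODE M21 (GRCm38, also called mm10), 21751 by name, 1259 by an older symbol and 410 not. Coordinates are 1-based. Lengths are those of 1 principal transcript per gene.

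The members and gene lists were chosen with earlier results of these data known. Members named are the 8 lowest and 8 highest by fold change, the 3 most abundant per length in each subunit, the Mrps18 genes and Mrpl12, and outside them up to 3 called genes of each list. Further members, listed genes and neighbours are named for their role after their values were seen. Of the pre-B cell marker list 9 genes are reported here. The promoters shown were also chosen after the values were seen.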

Additional observations from a re-analysis of the deposited data

How the results depend on the processing

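Across 17 alternatives, 59 to 74 of the 76 members were called lower, and none was called higher in any of them. Against a 1.1-fold change with glmTreat 59 were called lower, beside 2649 of all 12610 genes. With the GC and length trend removed the counts were 60 and 4124 of 12610, and with library totals alone 64 and 3103 of 12610. With DESeq2 they were 64 and 3197 of 16832, and without a low-count filter 74 and 4215 of 16832. In every one of the 17 alternatives 55 members were called lower. The median log2 fold change of all members was -0.22 with library totals alone and -0.30 without a low-count filter. It was -0.26 with the expression-level trend removed and -0.21 with the GC and length trend removed. Each lay further from -0.28 than 0.014, the SD between replicates of the members' median log2 CPM. When any 1 library was left out, the median log2 fold change ran from -0.32 to -0.26. The large subunit median was -0.25 with library totals alone and -0.22 with the GC and length trend removed, and the small subunit median -0.18 with library totals alone. Myb passed the test as higher with library totals alone (0.11), with the expression-level trend removed (0.14) and with the GC and length trend removed (0.09), and the cause was not tested. The signs of Mrpl27 (0.03) and Mrpl43 (0.01) turned with the GC and length trend removed, and that of Mrpl52 (-0.06) without shMyb replicate 2, none of them called.

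Same-numbered libraries did not deviate together (correlation -0.252), so the numbers are not shown to pair the samples. With a replicate block 71 members were called lower at a median of -0.28, and with the numbers crossed, an alternative chosen after seeing the data, 74. With 2 libraries per group the small falls of Mrpl10, Mrps9, Mrpl4 and Mrps26 depend on single libraries and on the setting, as given above. Other calls also changed with the setting: Mrps23 and Mrpl53 were called lower in 10 of the 17 alternatives, and Mrps25 and Mrps21 in 12.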
